A study of Mus musculus with 8 samples.

Results

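The 39 genes described here encode the route from glucose to lactate and to the mitochondrial entry of pyruvate, and they were taken as a list of symbols matched to Ensembl genes (GRCm38) among the 55536 genes of the count files. Both groups were CD8 T cells from lymph nodes of C57BL/6 mice that carry the OT-1 TCR transgene, specific for the peptide SIINFEKL, on a Rag-1KO background with CD45.1 or CD45.2 congenic alleles, from donors of 5 to 12 weeks of age. The culture began with 2 days of activation by 100 nM peptide, after which the cells were kept for 2 days in 20 ng/ml recombinant human IL-2, which drives them to become cytotoxic effectors. During the IL-2 culture the GC7 group (4 libraries) received 10 µM GC7, an inhibitor of the enzyme DHPS that starts the hypusine modification of the translation factor eIF5a, and the Mock group (4 libraries) received the acetic acid vehicle. The study states that GC7 also has effects that do not pass through eIF5a, so the comparison is of a drug with its vehicle. The RNA was sequenced to tell changes in translation from changes in mRNA abundance.

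Glycolysis splits glucose into pyruvate in the cytosol and yields ATP and building blocks along the way. Activated T cells raise glucose uptake and glycolysis and send much of the pyruvate to lactate, which lactate dehydrogenase makes and monocarboxylate transporters export. The rest of the pyruvate enters mitochondria through the MPC carrier and is committed to oxidation by the pyruvate dehydrogenase complex, which the PDK kinases switch off. Many of these steps are encoded by several genes, whose products differ in tissue distribution or kinetics, so isoforms were compared beside the steps.

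Total counts ranged from 17528776 to 25284730 a library. Values are counts scaled to library size and TMM factors (CPM), which assume that most genes do not change, and the RNA was from bulk cultures, so that fewer cells of a type and less RNA per cell cannot be told apart. A gene was tested if it had more than 3 CPM in at least 4 libraries, was called lower or higher in GC7 at an adjusted p (FDR, edgeR) under 0.01, and passed the 2-fold threshold if it also changed more than 2-fold. Nothing beyond the term biological replicates says how the 4 cultures of a group were separated, so p-values measure the spread between these samples. Of 7 CD8 T cell markers all were tested, with a summed level of 7500 to 8860 CPM in Mock and 4880 to 6700 CPM in GC7. Gzmb and Thy1 made up most of this sum, and the markers moved both ways. Cd3e, Cd3g, Thy1, Gzmb and Prf1 were called lower, Cd8a was called higher (699 ± 27.5 CPM in Mock and 972 ± 30.3 in GC7, SD, n = 4, log2 fold change 0.48, edgeR, adjusted p = 3.43e-05), and Cd8b1 was not called. Of the 4 B cell, 5 myeloid, 2 NK cell, 2 CD4 T cell and 3 erythroid markers, only Cd79b was tested. It was at 6.03 to 9.43 CPM in Mock and 3.83 to 4.99 CPM in GC7, whereas Ms4a1 and Pax5 had no count in any library. The summed level of the B cell list was 6.98 to 10.1 CPM in Mock and 4.61 to 5.86 CPM in GC7, and those of the myeloid, NK cell, CD4 T cell and erythroid lists stayed at or under 1.39 CPM in every library. The part of these marker differences in the results was not tested.

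mRNAs of the glycolytic route were lower in GC7 at nearly every step from glucose uptake to pyruvate kinase, while those that carry pyruvate into mitochondria and oxidise it were mostly not. Of the 37 members tested, 23 were called lower, 4 higher and 10 neither, with 16 lower and 1 higher by more than 2-fold. Over all 11189 genes tested, 23.5% were called lower and 23.0% higher, and 5.31% were lower and 3.17% higher by more than 2-fold. With libraries scaled by their totals in place of TMM, the split over all genes moved from 2635 lower and 2579 higher to 2058 lower and 3346 higher, while the members' split was 22 lower and 4 higher. The median log2 fold change was -0.84 over the tested members and 0.02 over all genes. Hk3, a hexokinase of myeloid cells, had at most 23 counts in any library, and Pdk4, a kinase induced by fasting, had 1 count in GC7 replicate 3 and none elsewhere, so neither was tested.

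The 39 members together held 4.04%, 4.38%, 4.08% and 4.01% of all counts in Mock replicates 1 to 4 and 2.13%, 2.15%, 1.68% and 2.03% in GC7 replicates 1 to 4. The groups did not overlap. Lower glycolysis, from Gapdh to Pkm, held 2.51% ± 0.122 (SD, n = 4) in Mock and 1.27% ± 0.127 (SD, n = 4) in GC7. Upper glycolysis held 0.995% ± 0.0412 and 0.459% ± 0.0505, respectively. The genes of lactate formation and export held 0.431% ± 0.0206 and 0.182% ± 0.0339. Those of pyruvate entry and pyruvate dehydrogenase control, PDK kinases included, held 0.0607% ± 0.00256 and 0.0505% ± 0.000361. The 2 genes called lower in that set were PDK kinases. Gapdh weighs heavily in these sums, and without it the members held 3.11% ± 0.118 in Mock and 1.39% ± 0.194 in GC7.

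Among libraries, GC7 replicate 3 had the lowest level of its group in 24 of 37 members (64.9%) and in 35.1% of all tested genes. Mock replicate 2 had the highest level of its group in 18 of 37 members (48.6%) and in 38.7% of all tested genes. In a fit without both libraries, which was chosen after seeing the data, 24 members were called lower and 5 higher, and 15 were lower by more than 2-fold. That fit also called more of all 11189 genes, with 3149 lower and 3223 higher, against 2635 and 2579 with all libraries.

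**Figure D1:**
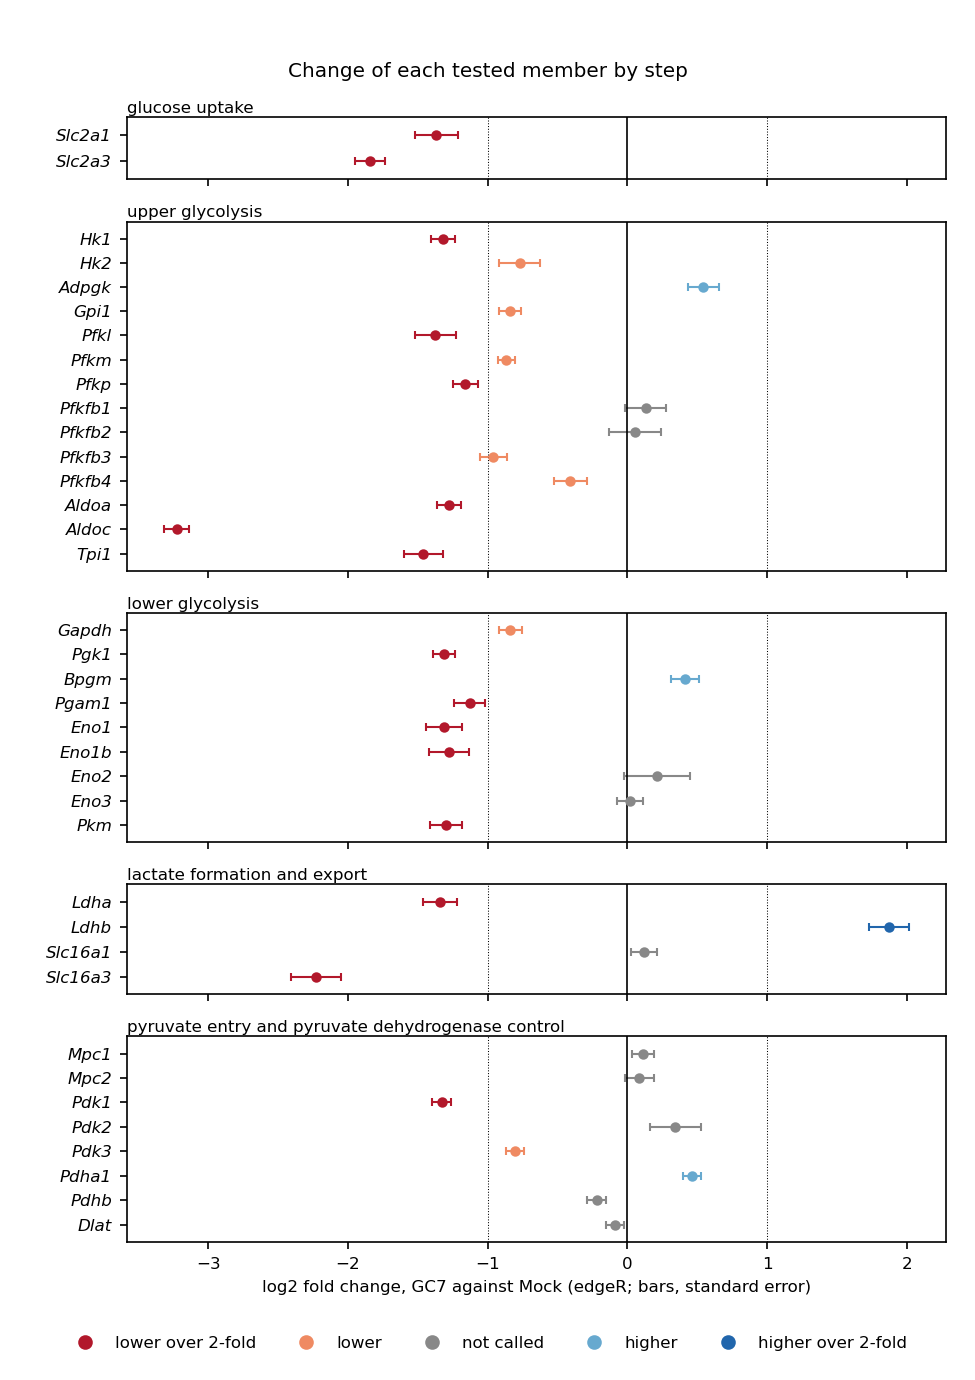
The plot of change by step gives the log2 fold change of each of the 37 tested members in GC7 against Mock on the horizontal axis, with bars for the standard error (edgeR, 4 libraries a group) and colours for the call. Members from uptake to pyruvate kinase lie mostly left of 0, with Aldoc at -3.23 farthest left, and Ldhb at 1.87 lies farthest right.

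Glucose enters these cells through GLUT1, encoded by Slc2a1, and the high-affinity transporter GLUT3, encoded by Slc2a3. Slc2a3 (chromosome 6, 122727809 to 122801640) had 995, 865, 1013 and 976 CPM in Mock and 294, 304, 209.5 and 266 CPM in GC7. Slc2a1 (chromosome 4, 119108711 to 119137983) had 367, 365, 344 and 357 CPM in Mock and 162, 166, 87.2 and 139.6 CPM in GC7. For both, every GC7 library lay below every Mock library, and GC7 replicate 3 was the lowest. The log2 fold change was -1.84 ± 0.109 (SE, edgeR, adjusted p = 4.43e-08) for Slc2a3 and -1.37 ± 0.155 (adjusted p = 1.17e-05) for Slc2a1. Scaled by exon length, the pair summed to 235 ± 7.95 CPM per kilobase in Mock and 76.7 ± 16.2 in GC7, with Slc2a1 at 43.5% ± 2.24 of the sum in Mock and 51.1% ± 3.30 in GC7. With the longest transcript as length its shares were 41.7% ± 2.22 and 49.3% ± 3.29, so which transporter was ahead in GC7 depended on the length used. The ratio of Slc2a1 to Slc2a3 overlapped between the groups, and its difference did not pass the test (log2 difference 0.44, two-sided exact permutation test, p = 0.0571, adjusted over 20 pairs 0.0635).

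Upper glycolysis consumes ATP to phosphorylate glucose and splits the resulting hexose into triose phosphates. Of its 15 members 14 were tested, and 11 were called lower, 1 higher and 2 neither, with a median log2 fold change of -0.91. The shares over all genes tested were 23.5% lower and 23.0% higher. Hexokinases trap glucose as glucose 6-phosphate. Hk1, the broadly expressed isoform, had 374, 386, 361 and 380.3 CPM in Mock and 161, 167, 123 and 150 CPM in GC7. Hk2, the isoform induced by growth signals, had 215, 177, 202 and 205 CPM in Mock and 138, 136, 77.0 and 116 CPM in GC7. Neither gene overlapped between groups, and Hk1 fell by more than Hk2, with log2 fold changes of -1.32 ± 0.0869 and -0.77 ± 0.147 (SE, edgeR, adjusted p = 1.08e-07 and 0.000703). The Hk2 to Hk1 ratio rose 1.44-fold, with no overlap between the groups (exact permutation test, p = 0.0286, adjusted 0.0357). This p is the smallest that 4 libraries against 4 can give. Per kilobase of exon, Hk2 took 43.1% ± 2.46 of the hexokinase level in Mock and 51.9% ± 3.55 in GC7, but with the longest transcript as the length its shares were 29.2% ± 2.04 and 37.1% ± 3.23, so which hexokinase was the more abundant in GC7 depended on the length used.

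Adpgk, an endoplasmic reticulum kinase that phosphorylates glucose with ADP in place of ATP, moved the other way. It had 32.4, 28.0, 32.1 and 33.8 CPM in Mock and 52.6, 51.0, 36.4 and 43.9 CPM in GC7. Every GC7 library was above every Mock library, with GC7 replicate 3 the closest to Mock. Its log2 fold change was 0.54 ± 0.110 (SE, edgeR, adjusted p = 0.00106). The ratio of Hk2 to Adpgk fell 2.52-fold (exact permutation test, p = 0.0286, adjusted 0.0357). Bbs4, which overlaps Adpgk on the opposite strand, held 13.3% as many counts and had a log2 fold change of 0.51 (edgeR, adjusted p = 0.00747). The sources used here do not state the strand setting of the counting, so reads of overlapping genes cannot be told apart.

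Gpi1, which converts glucose 6-phosphate to fructose 6-phosphate, averaged 1681 ± 165 CPM in Mock and 937 ± 42.9 in GC7 (SD, n = 4, log2 fold change -0.84 ± 0.0797, edgeR, adjusted p = 2.49e-06). Phosphofructokinase 1 then makes the committing step of glycolysis, as a tetramer of liver-type (Pfkl), muscle-type (Pfkm) and platelet-type (Pfkp) subunits. Pfkp had 1292, 1237, 1328 and 1331 CPM in Mock and 630, 634, 482 and 577 CPM in GC7. Pfkl had 324, 347, 317 and 323 CPM in Mock and 145, 150, 82.9 and 127 CPM in GC7. The groups of both lay fully apart. All 3 subunits were called lower, Pfkl by -1.37 ± 0.145, Pfkp by -1.16 ± 0.0879 and Pfkm by -0.87 ± 0.0610 on the log2 scale (SE, edgeR, adjusted p = 6.37e-06, 3.69e-07 and 1.89e-07). Pfkm averaged 67.1 ± 1.91 CPM in Mock and 36.8 ± 1.71 in GC7, and shares its locus with Senp1 on the opposite strand, which had 127% as many counts and a log2 fold change of 0.40 (edgeR, adjusted p = 0.00127).

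The makeup of phosphofructokinase 1 shifted slightly. Per kilobase of exon Pfkp made up 58.3% ± 1.63 of the family in Mock and 59.2% ± 1.12 in GC7, Pfkl 29.6% ± 1.35 and 25.5% ± 3.14, and Pfkm 12.1% ± 0.342 and 15.3% ± 2.21. The log2 ratio of Pfkl to Pfkm fell by 0.55 and that of Pfkl to Pfkp by 0.24 (exact permutation tests, p = 0.0286, adjusted 0.0357 for each). The Pfkp to Pfkm ratio differed by -0.30 on the log2 scale, and its groups overlapped (exact permutation test, p = 0.0571, adjusted 0.0635).

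The PFKFB enzymes make and break fructose 2,6-bisphosphate, the strongest activator of phosphofructokinase 1. Pfkfb3, whose product favours synthesis, was the most abundant of the 4 per kilobase, with 74.1% ± 1.42 of the family in Mock and 62.0% ± 2.56 in GC7. It fell from 83.1 ± 8.26 CPM to 42.7 ± 4.90 CPM (SD, n = 4, log2 fold change -0.96 ± 0.0955, edgeR, adjusted p = 3.88e-06). Pfkfb4 averaged 10.4 ± 1.03 CPM in Mock against 7.81 ± 0.951 in GC7, a log2 fold change of -0.41 ± 0.117 that lay just past the threshold (edgeR, adjusted p = 0.00945), which it missed with libraries scaled by totals (adjusted p = 0.0377). The Pfkfb4 call was also lost without Mock replicate 1, 3 or 4 or without GC7 replicate 2, 3 or 4 (adjusted p up to 0.0364). Pfkfb1 and Pfkfb2, at 4.36 and 4.55 CPM in Mock and 4.76 and 4.74 CPM in GC7, were not called (log2 fold changes 0.13 ± 0.145 and 0.05 ± 0.188, adjusted p = 0.457 and 0.820). Each of these genes overlaps, on the opposite strand, a gene with more counts, Apex2 with 170% of the counts of Pfkfb1 and Yod1 with 300% of those of Pfkfb2. The ratio of Pfkfb3 to Pfkfb2 fell 2.07-fold and that of Pfkfb4 to Pfkfb3 rose 1.46-fold (exact permutation tests, p = 0.0286, adjusted 0.0357).

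The largest change of any member was in Aldoc, the aldolase isoform best known from brain, which cleaves fructose 1,6-bisphosphate. Aldoc (chromosome 11, 78322968 to 78327781) had 270, 323, 300 and 283 CPM in Mock and 33.8, 27.1, 30.3 and 34.3 CPM in GC7. The fitted levels differed 9.36-fold, and no GC7 library came near a Mock library (log2 fold change -3.23 ± 0.0906, SE, edgeR, adjusted p = 7.29e-11). Aldoa, the main isoform of most cells, had 3869, 4645, 4181 and 3973 CPM in Mock and 1762, 1841, 1502 and 1777 CPM in GC7. Its libraries did not overlap between groups either, and its log2 fold change was -1.28 ± 0.0884 (adjusted p = 1.7e-07). Aldoc thus went from 5.92% ± 0.0889 of aldolase per kilobase in Mock to 1.61% ± 0.212 in GC7, and the Aldoa to Aldoc ratio rose 3.86-fold (exact permutation test, p = 0.0286, adjusted 0.0357). Unlike most members, Aldoc was not at its lowest in GC7 replicate 3 and its log2 fold change was -3.21 without that library.

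Tpi1, which interconverts the triose phosphates, had 1717, 2017, 1618 and 1615 CPM in Mock and 709, 727, 446 and 650 CPM in GC7. GC7 replicate 3 was again the lowest and Mock replicate 2 the highest. The log2 fold change of Tpi1 was -1.46 ± 0.139 (SE, edgeR, adjusted p = 2.57e-06), and -1.24 in the fit without both of these libraries.

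**Figure D2:**
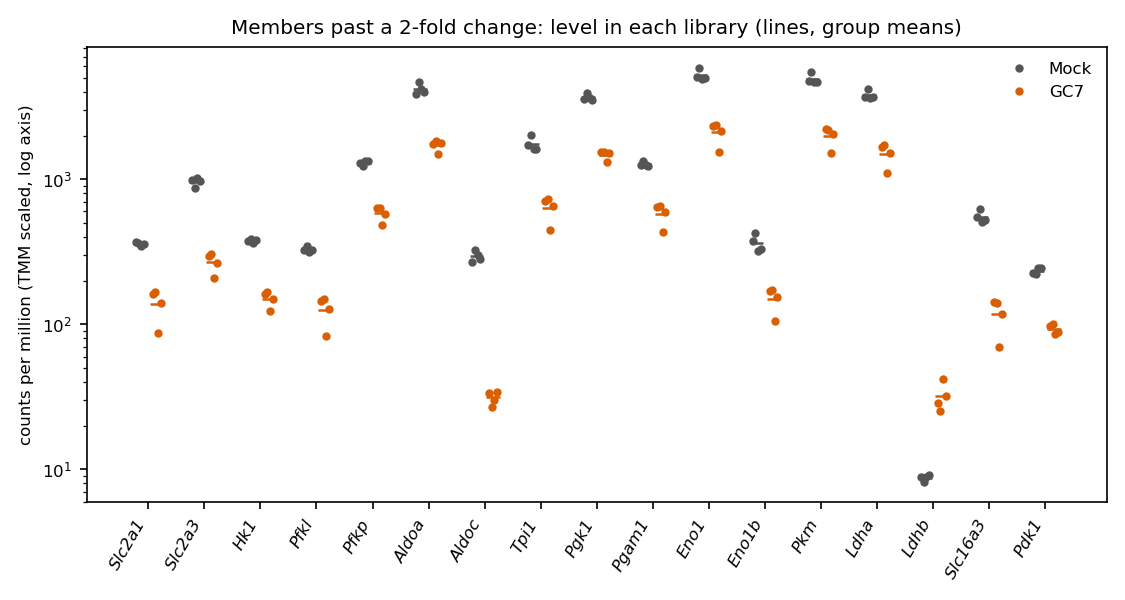
The plot of levels by library shows TMM-scaled CPM on a log axis for the 17 members past a 2-fold change, 4 points for Mock and 4 for GC7, with lines at the group means. No gene has overlapping groups, but the genes were chosen by their change in these same libraries, so this is not a further result. The lowest GC7 point of Slc2a1 (87.2), Tpi1 (446) and Slc16a3 (69.7) is replicate 3.

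Lower glycolysis turns triose phosphates into pyruvate and repays the ATP spent above. Of its 9 members, all tested, 6 were called lower, 1 higher and 2 neither, with a median log2 fold change of -1.13. The shares over all genes tested were 23.5% lower and 23.0% higher. Gapdh, the dehydrogenase that reduces NAD and a common reference gene, had the highest level per kilobase of all members, at 2552 CPM per kilobase in Mock and 1428 in GC7. It had 10097, 11710, 10285 and 10099 CPM in Mock and 6000, 5991, 5552 and 6067 CPM in GC7, with no overlap (log2 fold change -0.84 ± 0.0802, SE, edgeR, adjusted p = 2.75e-06). Gapdh has 177 annotated near-identical copies, of which 36 were tested and all 36 were called lower, with log2 fold changes from -1.13 to -0.69. The 10 copies with the most reads each averaged 29665 to 37318 counts, so the copies together held 213% of the counts of Gapdh. How reads with several matching positions were counted is not given in the sources used here, and the level of Gapdh is therefore uncertain. With the copies added to it, its log2 fold change was -0.86.

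Pgk1, phosphoglycerate kinase, makes the first ATP of this stretch. It had 3547, 3946, 3633 and 3508 CPM in Mock and 1532, 1533, 1311 and 1517 CPM in GC7. Pgam1, which moves the phosphate from carbon 3 to carbon 2, had 1259, 1336, 1254 and 1225 CPM in Mock and 640, 650, 434 and 598 CPM in GC7. Both groups were separate for each gene, with log2 fold changes of -1.31 ± 0.0784 for Pgk1 and -1.13 ± 0.112 for Pgam1 (SE, edgeR, adjusted p = 4.56e-08 and 3.69e-06). Pgam1 was within 2-fold (-0.98) in the fit without Mock replicate 2 and GC7 replicate 3. Copies of Pgk1 held 10.1% and those of Pgam1 34.2% as many counts as the gene, and those tested had log2 fold changes close to it (-1.31 to -1.30 for 2 copies of Pgk1 and -1.13 for 1 copy of Pgam1). These tested copies matched the gene with 100.0% identity, so reads of the matched stretch cannot be told apart and the closeness is no separate result.

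Bpgm, which makes 2,3-bisphosphoglycerate, is related to Pgam1 but was higher in GC7. It had 9.89, 10.5, 12.5 and 10.5 CPM in Mock and 13, 14.5, 14.7 and 15.5 CPM in GC7. The groups came close without overlap, with Mock replicate 3 the nearest to GC7 (log2 fold change 0.41 ± 0.0991, SE, edgeR, adjusted p = 0.00348). The call was lost without Mock replicate 1 or 4 or GC7 replicate 2 or 4 (adjusted p 0.0106 to 0.0158). The Pgam1 to Bpgm ratio fell 2.94-fold (exact permutation test, p = 0.0286, adjusted 0.0357).

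Enolase makes phosphoenolpyruvate, and pyruvate kinase turns that into pyruvate. Eno1, the enolase of most cells, had 5079, 5871, 4925 and 4988 CPM in Mock and 2338, 2383, 1539 and 2141 CPM in GC7. Pkm, the pyruvate kinase gene outside liver and red cells, had 4732, 5470, 4695 and 4704 CPM in Mock and 2223, 2181, 1514 and 2049 CPM in GC7. Neither overlapped, with GC7 replicate 3 lowest and Mock replicate 2 highest in both. Their log2 fold changes were -1.31 ± 0.127 and -1.30 ± 0.117 (SE, edgeR, adjusted p = 3.1e-06 and 1.58e-06). The counts are per gene, so the M1 and M2 splice forms of Pkm were not distinguished.

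Eno1b, a further enolase gene, had 377, 429, 321 and 333 CPM in Mock and 170, 173, 106 and 153 CPM in GC7, also without overlap (log2 fold change -1.28 ± 0.141, edgeR, adjusted p = 9.42e-06). Its coding sequence matches that of Eno1 with 99.39% identity, so reads may be split between them, and the ratio of Eno1 to Eno1b did not pass the test (log2 difference -0.037, exact permutation test, p = 0.514, adjusted 0.541). The muscle and neuronal enolases behaved differently in these values. Eno3 averaged 35.1 ± 4.41 CPM in Mock and 35.6 ± 3.06 in GC7, and Eno2 averaged 4.03 ± 0.477 and 4.71 ± 1.86 CPM (SD, n = 4). Neither was called (edgeR, adjusted p = 0.871 and 0.465), and the log2 fold change of Eno2 went from 0.21 to -0.06 without GC7 replicate 3. The ratio of Eno1 to Eno3 fell 2.56-fold and that of Eno1 to Eno2 2.78-fold (exact permutation tests, p = 0.0286, adjusted 0.0357).

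At the branch from pyruvate to lactate, the isoforms moved apart. Of the 4 genes of lactate formation and export, Ldha and Slc16a3 were lower by more than 2-fold. Ldhb was higher by more than 2-fold and Slc16a1 was not called. The shares past 2-fold over all genes tested were 5.31% lower and 3.17% higher. Because the 2 isoforms of each pair changed differently, the promoters of these 4 genes are shown, as the 250 bases before the RefSeq start in GRCm38.p6. The letters searched were ACGTG on both strands, the core of the hypoxia response element, and CACGTG, the E-box bound by Myc and related proteins, which contains ACGTG on each strand. Capitals mark these matches. The Ldha stretch is at chr7:46845554-46845803 (plus strand, the upstream of its 2 RefSeq starts), Ldhb at chr6:142507958-142508207 (minus strand), Slc16a3 at chr11:120948817-120949066 (plus strand) and Slc16a1 at chr3:104638414-104638663 (plus strand).
Ldha: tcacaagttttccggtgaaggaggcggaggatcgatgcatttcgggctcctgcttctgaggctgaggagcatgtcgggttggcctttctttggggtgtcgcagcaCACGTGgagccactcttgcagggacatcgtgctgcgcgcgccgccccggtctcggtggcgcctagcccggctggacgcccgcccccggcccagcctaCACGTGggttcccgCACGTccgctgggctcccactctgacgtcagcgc
Ldhb: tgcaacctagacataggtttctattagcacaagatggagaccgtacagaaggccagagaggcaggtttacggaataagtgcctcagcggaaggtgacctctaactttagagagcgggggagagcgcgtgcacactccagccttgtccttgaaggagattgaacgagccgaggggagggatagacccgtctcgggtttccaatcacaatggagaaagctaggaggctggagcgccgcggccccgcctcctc
Slc16a3: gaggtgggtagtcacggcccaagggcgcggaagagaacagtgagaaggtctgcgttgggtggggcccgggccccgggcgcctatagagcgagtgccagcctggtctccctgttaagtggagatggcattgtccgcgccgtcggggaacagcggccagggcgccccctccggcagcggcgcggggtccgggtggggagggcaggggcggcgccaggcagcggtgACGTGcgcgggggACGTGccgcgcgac
Slc16a1: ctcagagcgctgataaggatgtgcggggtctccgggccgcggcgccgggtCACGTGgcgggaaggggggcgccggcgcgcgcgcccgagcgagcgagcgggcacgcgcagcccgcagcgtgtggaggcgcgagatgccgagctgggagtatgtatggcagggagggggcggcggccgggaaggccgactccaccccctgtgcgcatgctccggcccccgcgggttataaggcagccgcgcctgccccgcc

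The Ldha stretch holds CACGTG beginning 145 and 48 bases before the start and a further ACGTG, read on the opposite strand, 34 bases before it. The 250 bases before the other Ldha start hold neither, nor does the Ldhb stretch. Slc16a3 holds ACGTG at 27 and 14 bases before the start, and Slc16a1, which was not called, holds CACGTG 200 bases before it. In windows from 250 bases before to 50 after the start, 24 of 57 windows of 37 members (42.1%) hold ACGTG and 6 (10.5%) hold CACGTG, against 19.6% and 7.15% of all 32851 RefSeq windows. By gene, 9 of 14 members that were lower by more than 2-fold hold ACGTG in some window, as do 5 of 7 that were lower by less, 1 of 4 that were higher and 4 of 10 that were not called, against 21.8% of all 27025 genes with a window. For CACGTG these counts are 1 of 14, 2 of 7, 0 of 4 and 3 of 10, against 8.09% of all genes. The windows of all genes include those of genes not tested here, and they were not matched to the members in base composition. A gene with several starts has several windows, and so more chances to hold a match. These matches describe letters in a window and were not tested as binding sites. Slc2a3 and Eno1b had no window.

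Ldha, encoding the M subunit of lactate dehydrogenase that predominates in glycolytic cells, had 3714, 4203, 3609 and 3668 CPM in Mock and 1672, 1713, 1105 and 1509 CPM in GC7. Ldhb, encoding the H subunit typical of heart, had 8.82, 8.25, 8.81 and 9.17 CPM in Mock and 28.7, 25.1, 42.2 and 32.2 CPM in GC7. Ldha was lowest and Ldhb highest in GC7 replicate 3, and neither gene overlapped between groups. Ldhb (chromosome 6, 142490249 to 142507957) was the sole member to rise by more than 2-fold, with a log2 fold change of 1.87 ± 0.143 (SE, edgeR, adjusted p = 3.93e-07), and of 1.71 without GC7 replicate 3. That of Ldha was -1.34 ± 0.124 (adjusted p = 2.08e-06). The Ldha to Ldhb ratio fell 9.15-fold, the largest change of the 20 pairs (exact permutation test, p = 0.0286, adjusted 0.0357). Ldha nevertheless remained the bulk of the family, at 99.5% ± 0.0510 of the level per kilobase in Mock and 95.4% ± 2.00 in GC7.

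Lactate leaves the cell through MCT1 (Slc16a1) and through MCT4 (Slc16a3), the low-affinity carrier of strongly glycolytic cells. Slc16a3 had 552, 623, 506 and 524 CPM in Mock and 143, 139, 69.7 and 118 CPM in GC7. Slc16a1 had 103, 96.5, 105 and 102 CPM in Mock and 121, 122, 88.8 and 109.7 CPM in GC7. For Slc16a3 the groups lay far apart, whereas for Slc16a1 they overlapped, since GC7 replicate 3 was below every Mock library and the other GC7 libraries were above. The log2 fold change was -2.23 ± 0.181 for Slc16a3 (SE, edgeR, adjusted p = 6.36e-07) and 0.12 ± 0.0914 for Slc16a1 (adjusted p = 0.275). In the fit without Mock replicate 2 and GC7 replicate 3, Slc16a1 was called higher (log2 fold change 0.19, adjusted p = 0.00278). The Slc16a1 to Slc16a3 ratio rose 5.24-fold (exact permutation test, p = 0.0286, adjusted 0.0357). Per kilobase of exon Slc16a1 made up 18.2% ± 1.82 of the pair in Mock and 53.8% ± 4.58 in GC7, or 15.4% ± 1.59 and 48.7% ± 4.64 with the longest transcript as length, so the order of the pair in GC7 depended on the length used.

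**Figure D3:**
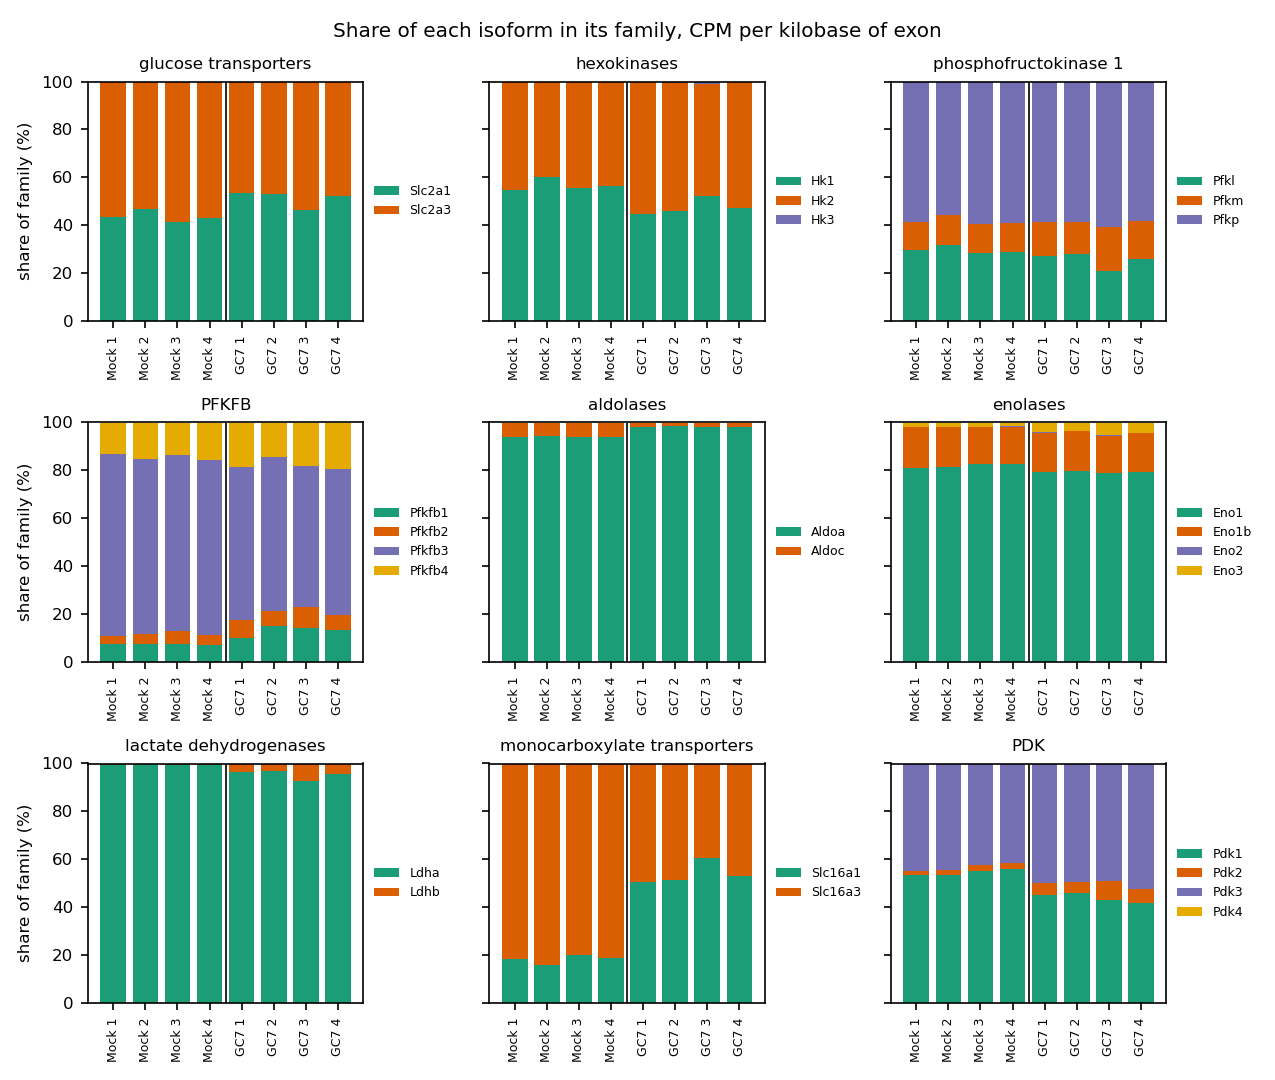
The bars give, for each of the 8 libraries, the share in percent of each isoform in its family after scaling CPM by exon length, with Mock left and GC7 right of the line. Slc16a1 goes from 18.2% of its pair in Mock to 53.8% in GC7 and Aldoc from 5.92% to 1.61% of aldolase, while Pfkp stays near 58.3% and 59.2%.

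The genes of pyruvate entry and pyruvate dehydrogenase control were called lower less often than those of the steps above. Of 9 members 8 were tested, and 2 were called lower, 1 higher and 5 neither, with a median log2 fold change of 0.00. Over all genes tested, 23.5% were called lower and 23.0% higher. The median pools the PDK kinases with the carrier and the subunits of the complex. Mpc1 and Mpc2, which together form the mitochondrial pyruvate carrier, averaged 23.4 ± 1.41 and 28.7 ± 4.33 CPM in Mock and 25.3 ± 2.04 and 30.5 ± 2.55 CPM in GC7 (SD, n = 4). Neither was called (log2 fold changes 0.11 ± 0.0799 and 0.08 ± 0.104, edgeR, adjusted p = 0.242 and 0.502), and their ratio overlapped between groups (log2 difference 0.02, exact permutation test, p = 0.857, adjusted 0.857). A processed copy of Mpc1 held most of the 25.0% of extra counts assigned to its copies.

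The genes called lower here were kinases that inactivate pyruvate dehydrogenase by phosphorylation. Pdk1, a target of hypoxia signalling in many cells, had 226, 222, 246 and 244 CPM in Mock and 97.6, 101, 85.9 and 88.2 CPM in GC7. Pdk3 had 62.9, 60.6, 62.3 and 59.7 CPM in Mock and 35.7, 36.0, 32.3 and 36.6 CPM in GC7. Both were fully separate, with log2 fold changes of -1.33 ± 0.0703 and -0.80 ± 0.0629 (SE, edgeR, adjusted p = 1.7e-08 and 4.73e-07). Pdk2, the broadly expressed kinase, was at 4.05 ± 0.844 and 5.18 ± 1.05 CPM and was not called (log2 fold change 0.34 ± 0.182, adjusted p = 0.122).

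The kinase family as a whole went from 55.4 ± 1.78 CPM per kilobase in Mock to 27.3 ± 1.16 in GC7 (SD, n = 4). Pdk1 made up 54.4% ± 1.28 of it in Mock and 43.8% ± 1.91 in GC7, Pdk3 43.3% ± 1.64 and 50.2% ± 1.5, and Pdk2 2.31% ± 0.429 and 6.03% ± 1.5. With the longest transcript as length Pdk1 was still ahead of Pdk3 in GC7, at 48.7% ± 2.00 against 45.0% ± 1.49. All 3 kinase ratios changed, that of Pdk1 to Pdk2 falling 3.21-fold, that of Pdk1 to Pdk3 falling 1.44-fold and that of Pdk2 to Pdk3 rising 2.23-fold (exact permutation tests, p = 0.0286, adjusted 0.0357 for each). They are not separate results, since each ratio follows from the others, and those with Pdk2 rest on a gene that was not called.

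Among subunits of the pyruvate dehydrogenase complex, Pdha1, the catalytic alpha subunit that the kinases phosphorylate, was higher in GC7. It had 115, 101, 118 and 116 CPM in Mock and 155, 151, 163 and 152 CPM in GC7, with Mock replicate 2 the lowest and no overlap (log2 fold change 0.46 ± 0.0642, SE, edgeR, adjusted p = 6.1e-05). Its partner Pdhb had 97.5, 100.3, 100.5 and 98.1 CPM in Mock and 83.1, 76.0, 95.4 and 85.8 CPM in GC7. The groups did not overlap, but its log2 fold change of -0.22 ± 0.0697 missed the threshold (adjusted p = 0.0158), which it passed in DESeq2 (adjusted p = 0.00626) and without GC7 replicate 3 (edgeR, adjusted p = 0.00208). The ratio of Pdha1 to Pdhb rose 1.61-fold (exact permutation test, p = 0.0286, adjusted 0.0357). Dlat, the acetyltransferase core, averaged 63.1 ± 1.92 CPM in Mock and 59.3 ± 4.07 in GC7 and was not called (adjusted p = 0.257).

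Of the 20 pairs compared across all steps, 16 passed an adjusted p of 0.05, and the same count passed with a smaller prior count of 0.5. The 4 that did not were Slc2a1/Slc2a3, Pfkp/Pfkm, Eno1/Eno1b and Mpc1/Mpc2. Each of the 16 was at the smallest p the exact permutation test can give here (0.0286). Several pairs share a member and so are not independent, and no share was computed for pairs of other genes.

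**Figure D4:**
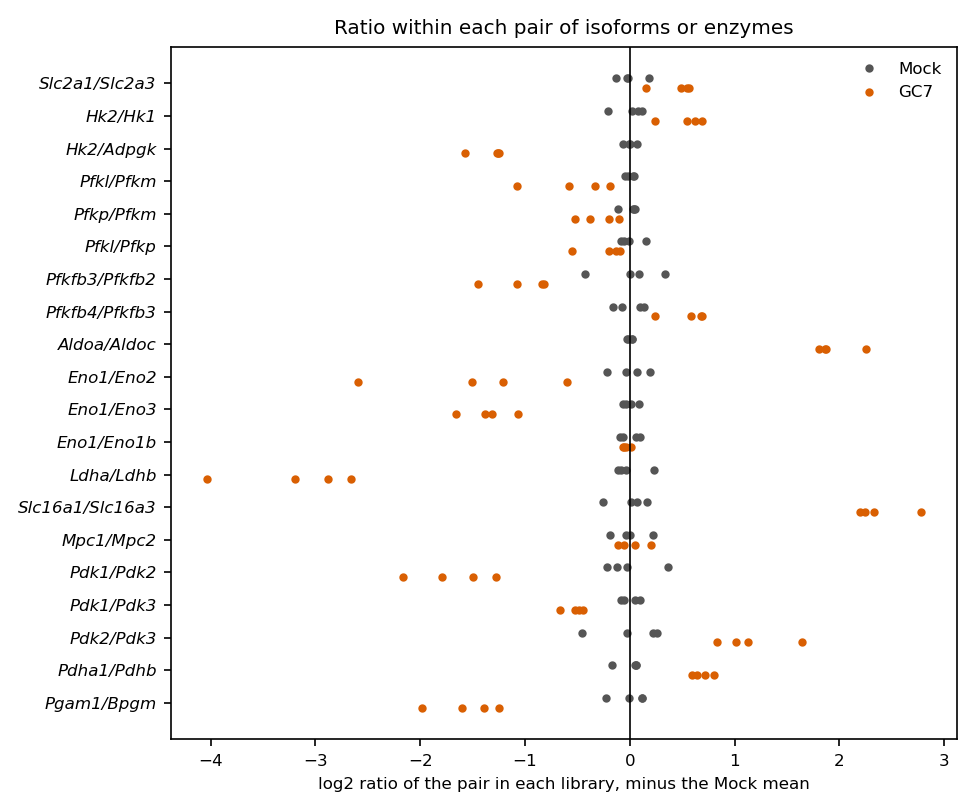
Each row is a pair of members, and each point is the log2 ratio of the pair in a library minus the mean of the 4 Mock libraries, with 4 points for Mock and 4 for GC7. Ldha/Ldhb lies farthest left, by -3.19 on average, and Slc16a1/Slc16a3 farthest right, by 2.39.

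Beyond the members, 33 further genes of the pathway were looked at, of which 18 were tested, 7 were called lower, 5 higher and 6 neither (median log2 fold change -0.20), beside 23.5% lower and 23.0% higher over all genes tested. The 4 that were lower by more than 2-fold were Pgm1, Pgp, Bsg and Pcx. Pgm1, which links glucose 6-phosphate to glycogen, averaged 250 ± 17.8 CPM in Mock and 53.9 ± 7.68 in GC7 (SD, n = 4, log2 fold change -2.21 ± 0.0981, SE, edgeR, adjusted p = 3.7e-09). Pgp, a phosphatase that clears toxic by-products of glycolytic enzymes, averaged 156 ± 16.8 and 44.6 ± 3.39 CPM (-1.81 ± 0.0853 on the log2 scale, adjusted p = 6.12e-09).

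Bsg, the chaperone that brings MCT1 and MCT4 to the cell surface, had 838, 971, 845 and 816 CPM in Mock and 347, 340, 297 and 340 CPM in GC7 (log2 fold change -1.39 ± 0.0781, SE, edgeR, adjusted p = 2.82e-08). Emb, a related chaperone of monocarboxylate transporters, averaged 209 ± 11 CPM in Mock and 189 ± 8.86 in GC7 and was not called (adjusted p = 0.0629). Pcx, which carboxylates pyruvate to oxaloacetate, averaged 109 ± 3.16 and 44.7 ± 8.81 CPM (-1.28 ± 0.116 on the log2 scale, adjusted p = 1.68e-06). Pck2, the mitochondrial enzyme of phosphoenolpyruvate synthesis, was at 106 ± 6.81 and 121 ± 9.57 CPM and was not called (adjusted p = 0.0415).

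The 5 called higher, named after their values were seen, all changed by less than 2-fold. Tigar, a phosphatase that lowers fructose 2,6-bisphosphate, had a log2 fold change of 0.60 ± 0.0845 (SE, edgeR, adjusted p = 6.88e-05). Around pyruvate dehydrogenase, Pdp1, a phosphatase that reactivates it, was at 0.43 ± 0.117, its E3-binding subunit Pdhx at 0.27 ± 0.0782 and its E3 subunit Dld at 0.23 ± 0.0557 (edgeR, adjusted p = 0.00741, 0.0093 and 0.00373). Minpp1, an inositol phosphate phosphatase that also acts on 2,3-bisphosphoglycerate, was at 0.37 ± 0.0970 (adjusted p = 0.00574). Pdp2, the other phosphatase of pyruvate dehydrogenase, also named after its values were seen, fell (-0.78 ± 0.0962, adjusted p = 2.25e-05).

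Of 15 regulators of glycolytic genes 12 were tested, 7 were called lower, 2 higher and 3 neither (median log2 fold change -0.50), beside the same 23.5% and 23.0% over all genes. Epas1, the hypoxia-inducible factor HIF-2 alpha, was lower by more than 2-fold, from 6.58, 4.74, 5.19 and 5.58 CPM in Mock to 1.16, 0.905, 1.94 and 1.16 CPM in GC7 (log2 fold change -2.11 ± 0.207, SE, edgeR, adjusted p = 3.31e-06). Hif1a, the more abundant alpha subunit, averaged 316 ± 23.5 CPM in Mock and 363 ± 14.8 in GC7 and was not called (0.20 ± 0.0679, adjusted p = 0.0241). Myc, a driver of glycolytic genes in activated T cells and named after its values were seen, had 248, 247, 217 and 229 CPM in Mock and 156, 138, 85.7 and 141 CPM in GC7, lowest in GC7 replicate 3 (-0.85 ± 0.143, adjusted p = 0.000267). The others called lower, named in the same way, include genes known to restrain glucose use, Txnip at -0.81 ± 0.156 and Sirt6 at -0.81 ± 0.0673 (edgeR, adjusted p = 0.000743 and 7.82e-07). The rest were Mycn (-0.70), Foxk1 (-0.55) and Mlx (-0.45). The 2 regulators called higher were Mlxip (MondoA), at 0.41 ± 0.0934, and Trp53 (p53), at 0.37 ± 0.0682 (adjusted p = 0.00255 and 0.000511). Foxk2 averaged 92.3 ± 6.67 and 104 ± 9.76 CPM and was not called (adjusted p = 0.0789).

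**Figure D5:**
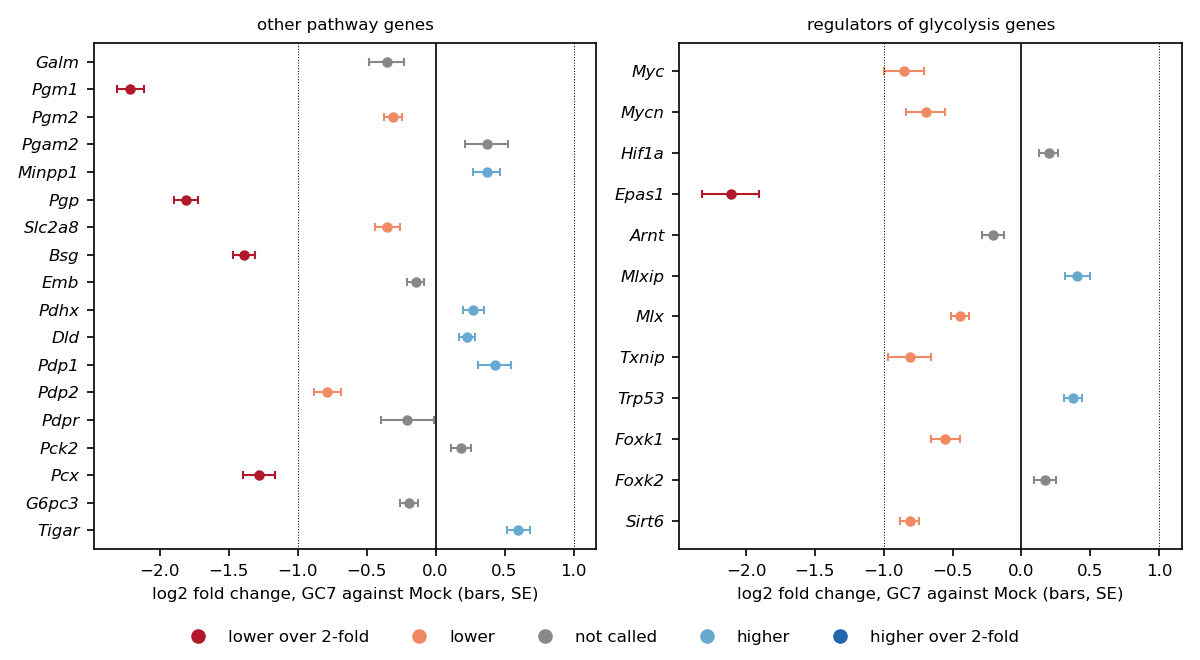
The left panel gives the log2 fold change in GC7 against Mock, with bars for the standard error (edgeR, 4 libraries a group), of the 18 tested genes that act around the pathway, and the right panel that of the 12 tested regulators. Pgm1 at -2.21 lies farthest left in the first and Epas1 at -2.11 in the second, and no gene in either passes a 2-fold rise.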

How the data were processed

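Messenger RNA was sequenced from 4 Mock and 4 GC7 libraries, grouped by their labels. The authors deposited raw counts per gene, which they made by trimming with Cutadapt, alignment to GRCm38 with STAR and counting with featureCounts, without pooling or normalisation. The strand setting and the treatment of reads with several positions are not given in the sources used here. The reads carried no molecular identifiers, so counts of reads are not counts of molecules.

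All 55536 gene identifiers matched the GRCm38 annotation (Ensembl 96). Members and lists were chosen with earlier results of these data known, so their choice is not independent of them. Genes with over 3 CPM in at least 4 libraries (52.6 counts in the smallest library) were tested with edgeR (version 4.0.16, R version 4.3.3), as a quasi-likelihood test with TMM factors, and p-values were adjusted by Benjamini-Hochberg across 11189 genes. The standard error was taken from the log2 fold change and its F statistic. Procedures were tested on simulated data. Pairs of members were compared by two-sided exact permutation tests of log2 CPM differences (prior count 2, scipy version 1.17.1), adjusted over 20 pairs. Isoform shares used CPM per kilobase of union exons. Near-identical copies were BLAST (version 2.17.0) matches of at least 200 bases and 90% identity. Promoters were from RefSeq. Values in every library were given for members past 2-fold, the 2 largest changes of each step and members against their step's majority. From the other lists, genes past 2-fold were named, with the 2 of highest level among those not called. In the other lists, 2 genes are not reported here and were left out of the counts. Alternatives were RLE factors, library totals, nuclear genes for scaling, a replicate block, DESeq2 (version 1.42.0), other filters, summed copies, leaving out libraries, another prior count and transcript length.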

Additional observations from a re-analysis of the deposited data

Results flagged for a closer look

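In groups of 4 libraries, 9 of 74 groups (37 members in Mock and in GC7) had a library whose gap to its nearest neighbour took a share of the group's range above Dixon's critical value, which chance passes in about 1 in 20 groups. Mock replicate 2 accounted for 6 of them, being the highest for Pkm (0.953 of the range), Gapdh (0.883) and Eno1 (0.838) and the lowest for Pfkfb3 (0.862), Pdha1 (0.854) and Pfkfb1 (0.852). GC7 replicate 3 was the lowest for Pgk1 (0.931) and Gapdh (0.852). GC7 replicate 4 was the highest for Mpc2 (0.859). The groups share the same libraries and so are not independent, and the rate of such gaps over all genes was not computed. Across all tested genes, replicate 2 gave the top value among Mock libraries in 38.7% and the bottom value in 39.7%. Within GC7, replicate 3 gave the bottom value in 35.1% of these genes and the top value in 36.1%. Among the 37 members, Mock replicate 2 gave the top value in 48.6% and the bottom value in 32.4%, and GC7 replicate 3 the bottom value in 64.9% and the top value in 16.2%. Without the rate of such gaps over all genes, the flags cannot be read as particular to the members. The cause of the gaps was not tested.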

How the results depend on the processing

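Among the members, the counts called lower were 22 to 24 and those called higher 3 to 5 under every alternative, against 23 and 4. Those lower by more than 2-fold numbered 15 to 17, against 16, and 1 was higher by more than 2-fold throughout. Leaving out each library in turn gave 22 to 23 lower and 3 to 4 higher. Whether same-numbered libraries came from the same animals is not stated in the sources used here. Deviations of same-numbered libraries correlated between -0.183 and 0.272, with a mean of 0.0438 against -0.02 for other numbers. Not every library correlated best with its own number, and these correlations cannot decide whether the numbers mark pairs. With the replicate block the counts were 23 lower, 4 higher, 16 lower by more than 2-fold and 1 higher by more than 2-fold. Directions reversed only for genes or ratios that were not called: Dlat was at 0.0047 with library totals, Pfkfb2 ranged from -0.053 to 0.26, Eno3 from -0.030 to 0.11 and Eno2 from -0.055 to 0.39 with 1 library left out, and the Mpc1/Mpc2 ratio from -0.042 to 0.095. Without both Mock replicate 2 and GC7 replicate 3, a fit chosen after seeing the data, Pfkfb2 was at -0.11 and Eno2 at -0.015. With library totals the median log2 fold change of all genes was 0.11, against 0.02. In the fits that tested 11189 genes, the counts over all genes ranged from 2058 to 3149 lower and from 2096 to 3346 higher. The permutation tests of pairs cannot pass with 1 library left out (smallest p 0.0571) or within numbered pairs (0.125), so only values were computed there. Of 52 isoform shares, 33 moved by more than 1 SD when the longest transcript set the length. Those shares divide the same CPM values by another length, so their shifts follow from the lengths. The cause of the other changes between settings was not tested. Pfkfb1, Pfkfb2, Eno2 and Pdk2 had at most 137 counts in any library, which limits their precision.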
